A study of Mus musculus with 1248 samples.

Results

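The genes described here are 37 genes of S phase and DNA replication, out of 40756 genes in the deposited table. They were chosen by symbol as a list of replication factors, with earlier results of these data known. All 37 symbols were found. They were followed in single cells of 4T1, a mammary carcinoma line of BALB/c mice, and of its derivative 4T1.2. The cells of either line expressed mCherry and firefly luciferase. They were injected into the heart of female BALB/c mice, and mCherry-positive cells were later sorted from the hindlimbs. The groups were 4T1 bone on day 4, day 10 and day 16 after injection, 4T1 from a tumour grown in the mammary fat pad to day 22, and 4T1 in culture, together with 4T1.2 bone on day 4 and 4T1.2 in culture. The labels give no mouse, plate or dish for a cell, so a group counts as 1 sample and no difference was tested across animals. Intervals of levels below cover the counting of reads only, and intervals of shares treat the wells of 1 sample as independent draws. No interval covers differences between animals, and the libraries carried no molecular barcodes.

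A cell starts S phase after the origin recognition complex, Cdc6 and Cdt1 have loaded the ring of Mcm2 to Mcm7 onto DNA, and the GINS complex and Mcm10 then help to turn the ring into a working helicase. Polymerases, the clamp Pcna and its loaders copy the strands, ribonucleotide reductase and thymidylate synthase supply deoxynucleotides, and Slbp handles the histone messages made at the same time. Many of these genes are transcribed by E2F factors around the start of S phase, whereas many genes of G2 and mitosis are transcribed later through other promoter elements. Cells that leave the cycle generally lower both sets.

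Many sorted wells had more RNA of blood cell genes than of keratins. A well was called tumour when its keratins Krt8 and Krt18 together exceeded the summed level of the blood cell genes Ptprc, Coro1a, Laptm5 and Rac2 in CPM (a gene's count scaled to a common total of gene counts per well or per sum), and host otherwise. Of 1248 cells 1218 passed the filter, and they split into 501 tumour and 717 host wells with 0 ties. Tumour wells numbered 54 in 4T1 culture, 137 on day 4, 54 on day 10, 71 on day 16, 85 in the fat pad tumour, 47 in 4T1.2 bone on day 4 and 53 in 4T1.2 culture. Host wells numbered 359, 41 and 119 in 4T1 bone at days 4, 10 and 16, 10 in the fat pad and 188 in 4T1.2 bone on day 4, although the labels name every bone cell as a tumour cell. The median well had 1905 CPM of mCherry in host wells and 405 CPM in tumour wells of 4T1 bone on day 4. In host and tumour wells it had 295 and 550 CPM on day 10, and 184 and 682 CPM on day 16. It had 198 and 360 CPM in 4T1.2 bone, and 13.2 and 594 CPM in the fat pad. Wells called host thus held reads of the sorted reporter, and its part in the tumour over host values was not tested. In 89 wells the keratin and blood sums lay within 10-fold of each other. Only 22 of the 47 tumour wells of 4T1.2 bone on day 4 were clear of blood genes by that measure, with a median blood sum of 212 CPM. The deepest tumour well of day 16 held 14.7% of all counts of that group.

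Promoter stretches illustrate the class to which the genes belong. Of the 29 members with a promoter in the RefSeq table of build GRCm38.p6, 250 bases before to 50 after the start, 11 (37.9%) held an E2F octamer (TTTCCCGC, TTTGGCGC, TTTCGCGC or TTTGCCGC on either strand). Of all 27025 genes with a promoter there 2.6% did. The octamers share letters, so that matches can overlap. The element TTTGAA, part of the cell cycle homology region of late cycle genes, was in 3 of 29 members (10.3%). It was in 20.2% of all genes with a promoter, and in 21 of 27 such G2 and M phase genes (77.8%). Stretches upstream of the start are shown for Mcm5, Mcm6 and Pola1, which differ widely in the results below, and for the mitotic marker Mki67 as a contrast. Capitals mark the octamers, or TTTGAA in Mki67.
Mcm5, chr8:75109326-75109397, + strand: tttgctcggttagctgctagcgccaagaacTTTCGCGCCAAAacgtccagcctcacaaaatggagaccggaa
Mcm6, chr1:128359715-128359845, - strand: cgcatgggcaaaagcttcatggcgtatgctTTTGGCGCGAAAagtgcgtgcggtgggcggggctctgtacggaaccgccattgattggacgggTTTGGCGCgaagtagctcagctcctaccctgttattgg
Pola1, chrX:93632256-93632323, - strand: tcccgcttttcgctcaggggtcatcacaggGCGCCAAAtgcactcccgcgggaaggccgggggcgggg
Mki67, chr7:135716442-135716525, - strand: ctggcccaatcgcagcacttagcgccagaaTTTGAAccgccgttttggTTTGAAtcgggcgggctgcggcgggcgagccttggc
Mcm5 and Mcm6 carried overlapping matches, and Pola1 carried 1. A match is a description of letters and not evidence of binding.

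Tumour cells in bone kept high levels of the replication genes on day 4 and day 10 and had low levels on day 16. Summed over tumour wells, the 37 genes together took 6344 CPM in 4T1 culture, 5014 CPM on day 4, 4287 CPM on day 10 and 1076 CPM on day 16, and 1218 CPM in the fat pad tumour. In 4T1.2 they took 4561 CPM in bone on day 4 and 5747 CPM in culture. The widest counting interval of these sums ran from 6331 to 6356 CPM, in 4T1 culture. Fewer cells in S phase and less of these RNAs in each cell cannot be told apart from the sums alone, so the wells were examined singly.

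The median well had 6088 CPM of the summed genes in 4T1 culture, 4449 CPM on day 4, 3726 CPM on day 10, 803 CPM on day 16 and 700 CPM in the fat pad. It had 4622 CPM in 4T1.2 bone on day 4 and 5668 CPM in 4T1.2 culture. A well was called low below 1522 CPM, the 4T1 culture median divided by 4. In 4T1 culture 0 of 54 wells were low, which allows a share of up to 6.60% by the exact binomial 95% interval. The low share was 3.65% on day 4 (5 of 137 wells, interval up to 8.31%), 22.2% on day 10 (12 of 54, 12.0 to 35.6%) and 83.1% on day 16 (59 of 71, 72.3 to 91.0%). It was 82.4% in the fat pad (70 of 85, 72.6 to 89.8%), 8.51% in 4T1.2 bone on day 4 (4 of 47, 2.37 to 20.4%) and 0 of 53 wells in 4T1.2 culture.

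**Figure D1:**
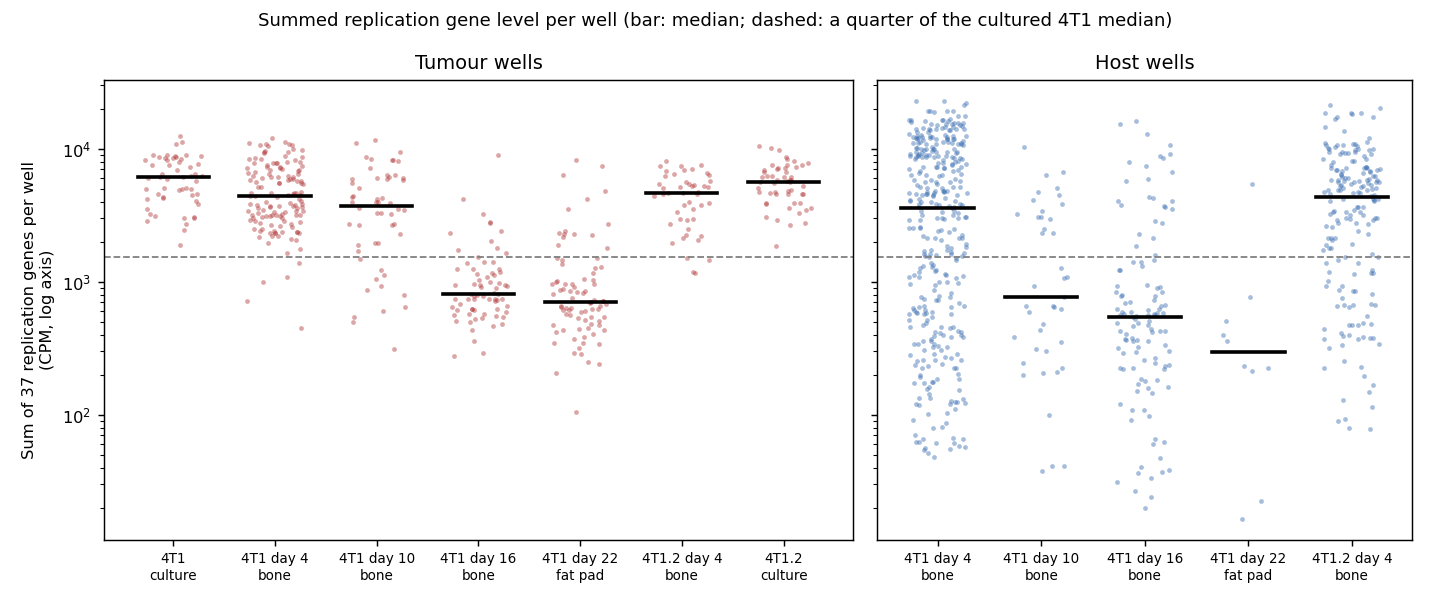
Each point is the summed CPM of the 37 replication genes in 1 well, on a log axis, for tumour wells (left) and host wells (right) by group, with the median as a bar and the limit of 1522 CPM dashed. Most tumour wells of day 16 and of the fat pad lie below the limit, while host wells of day 4 spread from 48.4 to 23039 CPM.

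The day 16 tumour cells were not uniform. The 12 wells at or above the limit ran from 1538 to 8927 CPM with a median of 2360 CPM, and they held 42.0% of all reads on the 37 genes with 14.9% of all gene counts. In the fat pad 15 such wells ran from 1786 to 8180 CPM and held 53.1% of the reads on these genes with 17.6% of gene counts. On day 16 1 well reached the median of 4T1 culture, as did 3 in the fat pad, 12 on day 10 and 45 on day 4. The single deepest day 16 well was itself low, at 524 CPM.

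The number of members detected per well was counted too. After each well was thinned to 500000 counts, the median tumour well had reads for 36 of the 37 genes in 4T1 culture, 33 on day 4, 30 on day 10, 17 on day 16 and 15 in the fat pad. It had reads for 34 in 4T1.2 bone on day 4 and for 36 in 4T1.2 culture. All 6 subunits of the Mcm2 to Mcm7 ring were detected together in 53 of 53 thinned wells of 4T1 culture, 131 of 135 on day 4 (97.0%), 40 of 52 on day 10 (76.9%), 17 of 69 on day 16 (24.6%) and 23 of 84 in the fat pad (27.4%). Thinning left out at most 2 tumour wells of a group.

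Levels between genes can be compared only per length, and per kilobase of exon the highest members in 4T1 culture were Rrm2 at 202 CPM per kb, Pcna at 163 CPM per kb and Mcm5 at 149 CPM per kb. The lowest were Blm at 2.94 CPM per kb, a helicase of recombination, and Pole at 4.18 CPM per kb, the leading-strand polymerase. Some members share exon bases with a gene on the opposite strand, and whether counting used strand is not known from the sources used here. Gse1 overlaps 67.3% of the exon bases of Gins2, and Gm10143 overlaps 78.8% of those of Fen1, so the values of both are uncertain. In build mm10 Rrm2 lies on chromosome 12 from 24708241 to 24714146 and Pcna on chromosome 2 from 132249162 to 132253314, as annotated by GENCODE. Overlaps of 15.1% for Rfc2, 11.2% for E2f8 and 10.7% for Rfc5 were the next largest. Pcna has the pseudogenes Pcna-ps1 and Pcna-ps2, and Tyms has Tyms-ps, with which reads could be shared.

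**Figure D2:**
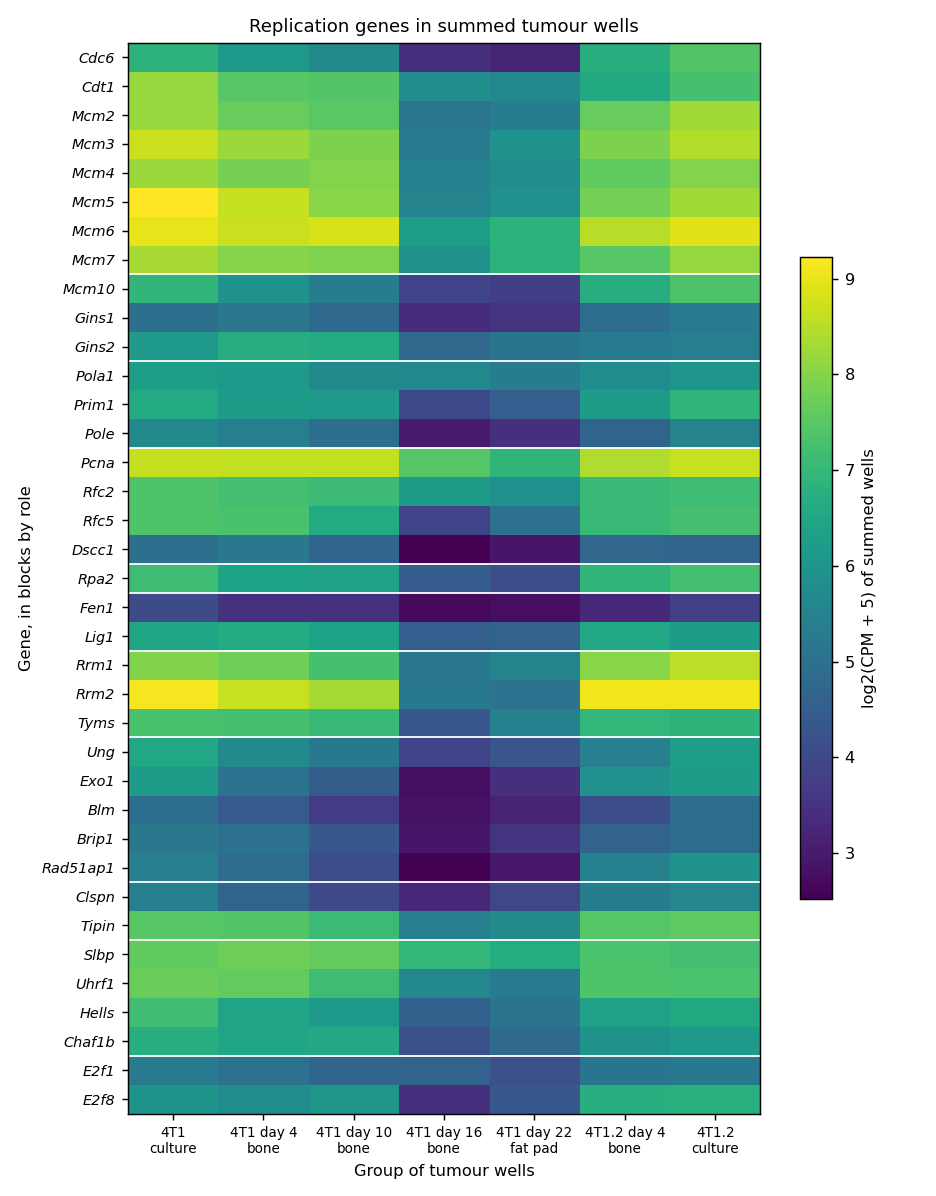
Heat map of log2(CPM + 5) of each replication gene in summed tumour wells, genes in blocks by role and groups across. The columns of 4T1 day 16 bone and the fat pad are darkest, with Pcna and Slbp staying among the brighter rows there.

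The comparison of day 4 bone with culture asked how newly seeded tumour cells differ from the cells that were injected. In 4T1 1 of 37 members, Exo1, lay at least 2-fold lower, where 3.6% of 10234 genes did, and 0 lay at least 2-fold higher, where 5.18% did. The members' median log2 ratio of CPM + 5 was -0.28, against -0.06 over all genes. Of the 37 members 32 lay below 0, where 5608 of 10234 genes did. Exo1, a nuclease of mismatch repair and resection, had 28.9 CPM in day 4 bone and 69.0 CPM in culture, a log2 ratio of -1.13. In single wells it ran from 0 to 245 CPM with a median of 10.5 CPM in day 4 bone, and from 1.12 to 248 CPM with a median of 45.8 CPM in culture, so the wells overlapped. It was at 0 in 22 of 137 wells of day 4 bone and in 0 of 54 of culture.

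The initiation factors Mcm10 and Cdc6 stayed within 2-fold, with log2 ratios of -0.95 and -0.71. Mcm10 had 58.0 CPM in day 4 bone and 116 CPM in culture, and Cdc6 had 65.8 CPM in day 4 bone and 111 CPM in culture. Pcna, the sliding clamp, was nearly the same, at 387 CPM in day 4 bone and 391 CPM in culture. Gins2, with the overlap given above, had 98.0 CPM in day 4 bone and 66.0 CPM in culture, a log2 ratio of 0.54. Of 30 genes of G2 and M phase 24 lay above 0 in the same comparison, where 4626 of 10234 genes did. Their median was 0.23, and 0 lay past 2-fold. Among 58 other replication genes 1 lay at least 2-fold lower and 0 higher, with a median of -0.31.

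In 4T1.2 0 of 37 members lay past 2-fold between day 4 bone and culture, where 6.17% of 10319 genes lay higher and 3.15% lower. The members' median log2 ratio was -0.29, against -0.03 over all genes. The furthest were Ung at -0.84, the uracil DNA glycosylase, with 38.4 CPM in day 4 bone and 72.5 CPM in culture, and Pole at -0.83, with 20.7 CPM in day 4 bone and 40.8 CPM in culture. Rrm2, the small subunit of ribonucleotide reductase, had 541 CPM in day 4 bone and 535 CPM in culture. In clear wells alone 2 members lay past 2-fold, with 22 wells of day 4 bone left.

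Between day 10 and day 4 of 4T1 bone the replication genes and the G2 and M phase genes stood apart. Of 37 members 0 lay past 2-fold, where 4.64% of 10331 genes lay higher and 2.73% lower, and the median log2 ratio was -0.34 against -0.12 over all genes. In the same wells 22 of 30 G2 and M phase genes lay at least 2-fold lower, with a median of -1.23. Their sum was 2896 CPM on day 10 and 6758 CPM on day 4. Ube2c, a ubiquitin-conjugating enzyme of mitosis, had the lowest ratio of that list at -2.14. Of 58 other replication genes 3 lay at least 2-fold lower and 0 higher, among them Pole2 at -1.25 and Recql4 at -1.15.

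Members differed by role on day 10. The licensing factors Cdc6, Cdt1 and Mcm2 to Mcm7 had a median log2 ratio of -0.13 over day 4, and the 5 repair genes had a median of -0.72. Mcm6 had 445 CPM on day 10 and 408 CPM on day 4. Rad51ap1, a repair gene, had 12.0 CPM on day 10 and 25.2 CPM on day 4, a log2 ratio of -0.82, and was at 0 in 30 of 54 wells on day 10. E2f8, a repressor of the E2F family, had 62.2 CPM on day 10 and 50.3 CPM on day 4, a log2 ratio of 0.28.

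The wells of day 10 included 12 low wells, and 11 of those were also low in the G2 and M phase sum, by its own culture median divided by 4. In all 17 of 54 wells were low in that sum. Across the 54 wells the members' sum had a Spearman rho of 0.70 with the number of detected genes, against 0.01 across the 137 wells of day 4 and 0.05 across the 71 wells of day 16. The median well had 10103 detected genes on day 10 and 10865 on day 4. The part of detected genes in the day 10 values was not tested.

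**Figure D3:**
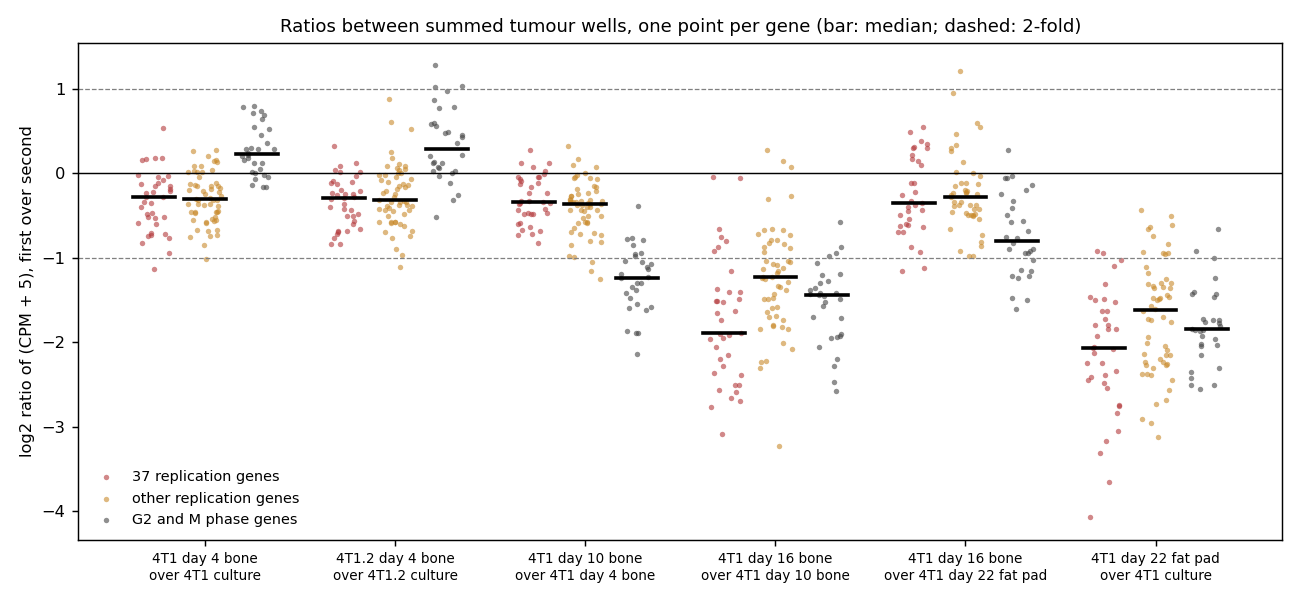
Log2 ratios of CPM + 5 between summed tumour wells, 1 point per gene, for the 37 replication genes, the other replication genes and the G2 and M phase genes, with the list median as a bar and 2-fold dashed. The lists part on day 10 over day 4, where the medians are -0.34 for the 37 genes and -1.23 for the G2 and M phase genes.

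On day 16 nearly the whole set was low. Against day 4 33 of 37 members lay at least 2-fold lower, where 9.28% of 10523 genes did, and 0 lay higher, where 10.2% did. The median log2 ratio was -2.13, against -0.02 over all genes. All 30 G2 and M phase genes and 46 of 58 other replication genes lay at least 2-fold lower as well. The day 10 comparison gave 30 of 37 members at least 2-fold lower on day 16, where 5.52% of 10548 genes did, and 0 higher, where 7.14% did. Its median was -1.89, and both comparisons use the same day 16 wells. The median share of mitochondrial counts was 3.99% in day 16 tumour wells and 2.89% in those of day 4, and its part in these values was not tested.

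Deoxynucleotide supply was the role with the lowest median on day 16 over day 4, at -2.93 for its 3 genes. Rrm2 had 32.4 CPM on day 16 and 401 CPM on day 4, a log2 ratio of -3.44. Its wells ran from 0 to 1009 CPM with a median of 2.09 CPM on day 16, and from 4.40 to 1460 CPM with a median of 331 CPM on day 4. The ranges overlapped, since a few day 16 wells were high, while 12 of 71 day 16 wells were at 0. Tyms, thymidylate synthase, had 15.3 CPM on day 16 and 150 CPM on day 4, a log2 ratio of -2.93. Rrm1, the large reductase subunit, had 32.1 CPM on day 16 and 210 CPM on day 4, a log2 ratio of -2.53.

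All 8 licensing genes lay at least 2-fold lower on day 16 than on day 4. Mcm5 had 41.0 CPM on day 16 and 391 CPM on day 4, a log2 ratio of -3.10. Its median well had 1.93 CPM on day 16 and 301 CPM on day 4, and the wells overlapped, with a highest of 641 CPM on day 16 and a lowest of 4.70 CPM on day 4. Cdc6 was at 0 in 37 of 71 wells on day 16 and in 2 of 137 on day 4, and had 5.76 CPM on day 16 and 65.8 CPM on day 4. Mcm6 kept a median of 22.1 CPM per well on day 16, and reads for it were found in 89.9% of thinned wells, against 63.8% for Mcm5. Cdt1 had the smallest difference of the 8 genes, with 51.5 CPM on day 16 and 175 CPM on day 4, a log2 ratio of -1.67.

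The clamp and its loaders diverged. Rfc5, a subunit of the clamp loader, had 9.64 CPM on day 16 and 152 CPM on day 4, a log2 ratio of -3.43. Rfc2, another subunit, had 68.2 CPM on day 16 and 145 CPM on day 4, a log2 ratio of -1.04. Pcna had 170 CPM on day 16 and 387 CPM on day 4, a log2 ratio of -1.16, and was detected in 69 of 69 thinned wells of day 16. Its wells ran from 2.69 to 603 CPM with a median of 147 CPM on day 16, and from 8.32 to 1290 CPM with a median of 325 CPM on day 4.

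The remaining roles are given by group. All 5 repair genes lay at least 2-fold lower, and together they took 16.9 CPM on day 16 and 147 CPM on day 4. Among them Exo1 was at 0 in 55 of 71 wells and Rad51ap1 in 51 of 71 wells on day 16. Blm had the smallest log2 difference of the 5 after 5 CPM was added, at -1.61, and Brip1, a helicase that works with Brca1, had -2.13. At such low levels the added 5 CPM damps the ratios.

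The 3 firing factors took 36.9 CPM on day 16 and 187 CPM on day 4, with log2 ratios of -2.12 for Mcm10, -1.94 for Gins2 and -1.77 for Gins1. Among the polymerases Pole had 3.00 CPM on day 16 and 37.6 CPM on day 4, a log2 ratio of -2.41, and the primase subunit Prim1 had a log2 ratio of -2.22. Dscc1, a subunit of an alternative clamp loader, had 0.723 CPM on day 16 and 31.1 CPM on day 4. Its log2 ratio of -2.66 is damped by the added 5 CPM. Rpa2, a subunit of the complex that coats single-stranded DNA, had a log2 ratio of -1.96, and Lig1, which seals nicks of the lagging strand, had -2.13.

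Clspn and Tipin, which protect the fork, had log2 ratios of -1.43 and -2.01. Of the chromatin genes Chaf1b stood at -2.31, Uhrf1, which helps to maintain DNA methylation, at -1.98 and the remodeller Hells at -1.84. E2f8 had 5.69 CPM on day 16 and 50.3 CPM on day 4, a log2 ratio of -2.37.

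The 4 members within 2-fold between day 16 and day 4 were E2f1, Pola1, Slbp and Fen1. Slbp, the stem-loop binding protein of histone mRNA, had 121 CPM on day 16 and 211 CPM on day 4, a log2 ratio of -0.78. Its median well had 134 CPM on day 16 and 187 CPM on day 4, and reads were found in 98.6% of thinned day 16 wells. Pola1, the catalytic subunit of the primase-associated polymerase, had 45.3 CPM on day 16 and 64.9 CPM on day 4, a log2 ratio of -0.47. Its median well had 4.93 CPM on day 16 and 44.9 CPM on day 4, a wider gap than that of the sums. E2f1, an activating E2F factor, had 20.4 CPM on day 16 and 28.3 CPM on day 4, a log2 ratio of -0.39, with medians per well of 0.993 CPM on day 16 and 15.0 CPM on day 4. Fen1, the flap nuclease, had low counts in both groups, at 1.46 CPM on day 16 and 6.10 CPM on day 4. Its ratio of -0.78 is damped by the added 5 CPM, and its values are uncertain through the overlap given above.

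Bone on day 16 was set against the fat pad tumour on day 22, where site and day both differ and cannot be told apart. Of 37 members 33 reached 5 CPM in either sum, and Fen1, Blm, Dscc1 and Rad51ap1 did not. Of those 33, 2 lay at least 2-fold lower in bone, where 4.23% of 10590 genes did, and 0 lay higher, where 7.48% did. Rfc5 had 9.64 CPM in day 16 bone and 27.7 CPM in the fat pad, a log2 ratio of -1.16. Tyms had 15.3 CPM in day 16 bone and 39.1 CPM in the fat pad, a log2 ratio of -1.12. Without the deepest day 16 well 1 member lay past 2-fold. Pcna, at 170 CPM in day 16 bone and 115 CPM in the fat pad, had the highest ratio at 0.55. Of 30 G2 and M phase genes 9 lay at least 2-fold lower in summed bone wells, and their median log2 ratio was -0.80. In the median well the order was the other way for both sums, with 312 CPM in day 16 bone and 242 CPM in the fat pad for the G2 and M phase genes, and 803 CPM in day 16 bone and 700 CPM in the fat pad for the members.

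The fat pad tumour was also low against culture. Of 37 members 35 lay at least 2-fold lower, where 13.3% of 10503 genes did, and 0 lay higher, where 10.7% did. The median log2 ratio was -2.07, against -0.14 over all genes. Rrm2 had 28.7 CPM in the fat pad and 560 CPM in culture, a log2 ratio of -4.07, and was at 0 in 25 of 85 fat pad wells. Cdc6 had 4.22 CPM in the fat pad and 111 CPM in culture, a log2 ratio of -3.65. Slbp at -0.92 and Pola1 at -0.94 were the 2 members within 2-fold.

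The lines were compared in culture and in bone. In culture 0 of 37 members lay past 2-fold between 4T1.2 and 4T1, where 3.62% of 10126 genes lay higher and 4.98% lower, and the median log2 ratio was -0.17. Mcm5 had 303 CPM in 4T1.2 and 595 CPM in 4T1, a log2 ratio of -0.96, and Cdt1 had 149 CPM in 4T1.2 and 288 CPM in 4T1, a log2 ratio of -0.93. E2f8 had 104 CPM in 4T1.2 and 58.1 CPM in 4T1, a log2 ratio of 0.79. Rrm1 had 371 CPM in 4T1.2 and 242 CPM in 4T1, a log2 ratio of 0.61. Outside the 37 genes Cdc45, a part of the replicative helicase, was the single other replication gene past 2-fold, at 1.90.

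In bone on day 4 1 of 37 members lay at least 2-fold lower in 4T1.2 than in 4T1, where 5.07% of 10424 genes did, and 0 lay higher, where 4.19% did. That member was Gins2, whose values are uncertain through the overlap given above. It had 34.2 CPM in 4T1.2 and 98.0 CPM in 4T1, a log2 ratio of -1.40. E2f8 had 102 CPM in 4T1.2 and 50.3 CPM in 4T1, a log2 ratio of 0.95. Cdt1 had 90.9 CPM in 4T1.2 and 175 CPM in 4T1, a log2 ratio of -0.91. The ratio of Cdc45 was 1.72. The culture and bone comparisons share no wells. In clear wells alone 2 members lay at least 2-fold lower in the bone comparison and 0 higher, with 22 wells of 4T1.2 left.

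The members varied together among wells of a group, most weakly on day 16. Across the 54 wells of 4T1 culture the median member had a Spearman rho of 0.62 with the sum of the other members, and 36 of 37 were above 0. The median was 0.58 on day 4 (137 wells), 0.70 on day 10 (54 wells), 0.19 on day 16 (71 wells) and 0.39 in the fat pad (85 wells). It was 0.52 in 4T1.2 bone on day 4 (47 wells) and 0.54 in 4T1.2 culture (53 wells). On day 16, 33 of 37 members were above 0 and the lowest was at -0.16. The median thinned well of that group had reads for only 17 members, which limits these values. Wells of a group share their sample and preparation, and these values describe them without a test. Mcm3 at 0.85, Mcm6 at 0.83 and Pcna at 0.80 were among the closest to the set in 4T1 culture, and Blm at -0.02 and Pola1 at 0.04 were the furthest.

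The relation to G2 and M phase genes differed in sign between groups. The members' sum had a rho of -0.58 with the G2 and M phase sum in 4T1 culture and -0.54 on day 4, but 0.46 on day 10, 0.46 on day 16 and 0.43 in the fat pad. It was -0.31 in 4T1.2 bone on day 4 and -0.60 in 4T1.2 culture. In 4T1 culture 31 of 37 members had a negative rho with that sum, and on day 16 0 of 37 had. Ung at -0.69 and Mcm7 at -0.63 were the lowest in culture, and Rfc5 at 0.11 and Rrm1 at 0.13 were among the few above 0. Wells low in both sums numbered 0 in 4T1 culture, 2 on day 4, 11 on day 10, 57 on day 16 and 64 in the fat pad.

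**Figure D4:**
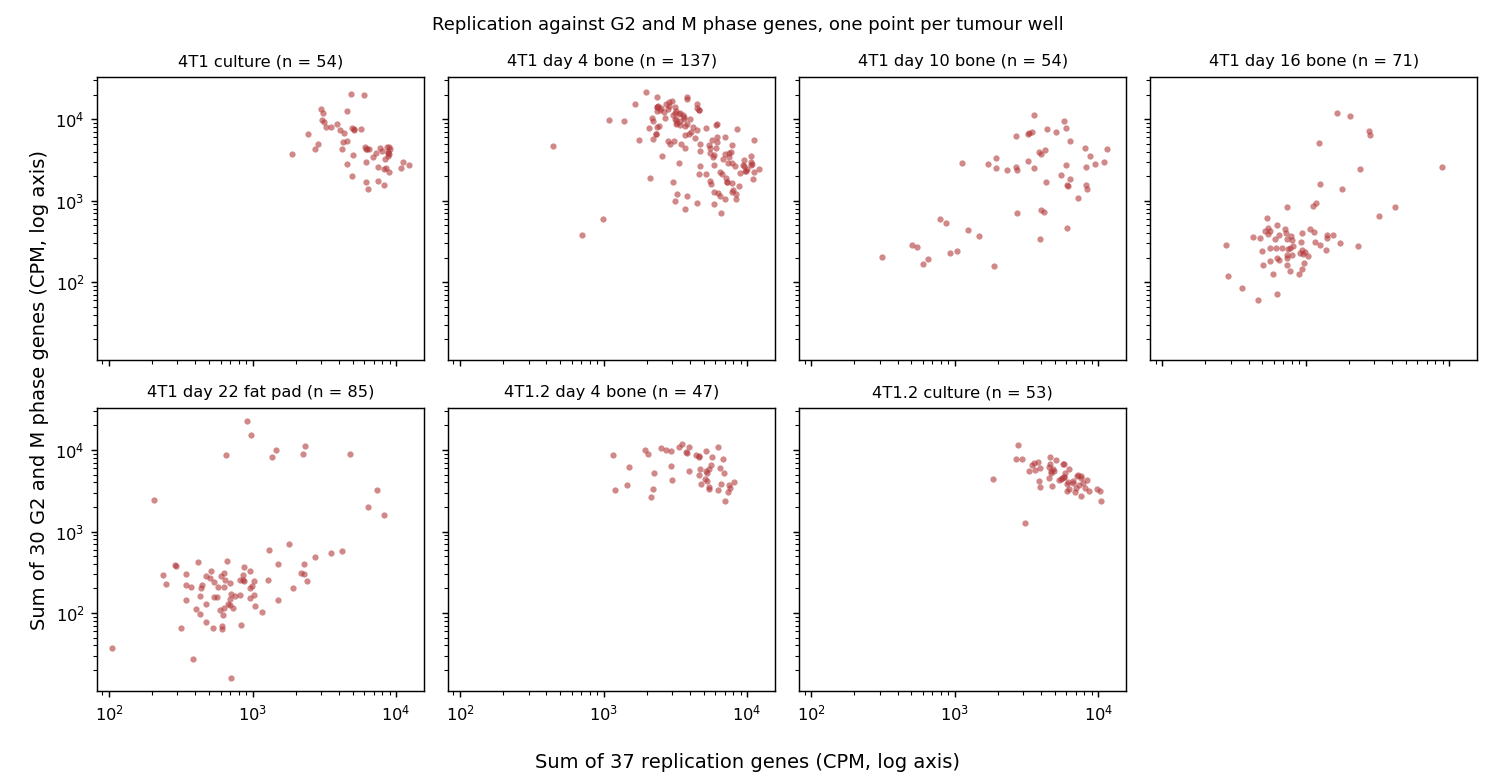
Summed CPM of the 37 replication genes against that of 30 G2 and M phase genes in single tumour wells, both on log axes, by group. Cultured and day 4 wells slope downward (rho -0.58 and -0.54 in 4T1), and a cloud low in both sums appears on day 10 (11 wells), day 16 (57 wells) and in the fat pad (64 wells).

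Genes outside the lists were ranked by the same likeness. Among 6886 genes with a mean of 20 CPM or more in the 501 tumour wells, ranked within groups, 31 of the 33 members that were ranked fell in the first 100, which the use of members in the sum favours. Of the other replication genes 29 of 45 did, and of the G2 and M phase genes 0 of 30. The pooled rho of the G2 and M phase genes ran from -0.25 to 0.11. It joins groups in which their relation to the members' sum differed in sign, as given above. The closest genes of no list were Hat1, a histone acetyltransferase, and Tcf19, both at a rho of 0.54, the cyclin-dependent kinase Cdk2 at 0.50 and Umps, an enzyme of pyrimidine synthesis, at 0.48. The lowest was the nuclear noncoding RNA Malat1 at -0.33.

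Tumour and host wells of the same sort were then compared. On day 4 of 4T1 the summed members took 5014 CPM in tumour wells and 5720 CPM in host wells, while the median well had 4449 CPM in tumour wells and 3585 CPM in host wells. Of 37 members 2 lay at least 2-fold higher in tumour wells, where 17% of 11300 genes did, and 1 lay lower, where 19.6% did. Gins2, with the overlap given above, had 98.0 CPM in tumour wells and 41.9 CPM in host wells, a log2 ratio of 1.13. Ung had 47.7 CPM in tumour wells and 20.5 CPM in host wells, a log2 ratio of 1.05. Clspn, the checkpoint adaptor at the fork, had 20.7 CPM in tumour wells and 51.3 CPM in host wells, a log2 ratio of -1.13. In 4T1.2 bone on day 4 0 of 37 members lay past 2-fold, where 16.1% of 11402 genes lay higher and 20.5% lower, with sums of 4561 CPM in tumour wells and 5118 CPM in host wells. The median well there had 4622 CPM in tumour wells and 4330 CPM in host wells. Only 22 of the 47 tumour wells of that group were clear of blood genes. In clear wells alone 3 members lay at least 2-fold lower in tumour wells and 0 higher.

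On day 10 of 4T1 the summed members took 4287 CPM in 54 tumour wells and 2085 CPM in 41 host wells, with medians per well of 3726 CPM in tumour wells and 772 CPM in host wells. Of 37 members 19 lay at least 2-fold higher in tumour wells, where 24.6% of 11048 genes did, and 0 lay lower, where 18.5% did. The median log2 ratio was 1.01, against 0.26 over all genes. With TMM factors, which bring the median of all genes to 0.04, 12 members lay at least 2-fold higher and 2 lower, and with DESeq2 size factors 11 lay higher and 2 lower. Gins2, again with its overlap, had 94.7 CPM in tumour wells and 14.8 CPM in host wells, a log2 ratio of 2.33. Chaf1b, a histone chaperone subunit, had 90.3 CPM in tumour wells and 17.0 CPM in host wells, a log2 ratio of 2.11. Mcm6 had 445 CPM in tumour wells and 110 CPM in host wells, a log2 ratio of 1.97.

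On day 16 the summed members took 1076 CPM in 71 tumour wells and 1650 CPM in 119 host wells. The median well had the opposite order, with 803 CPM in tumour wells and 545 CPM in host wells, and the highest well had 8927 CPM in tumour wells and 16209 CPM in host wells. Of 36 measured members 10 lay at least 2-fold lower in tumour wells, where 17.9% of 11311 genes did, and 0 lay higher, where 23.9% did. The median log2 ratio was -0.75, against 0.22 over all genes. Rrm2 had 32.4 CPM in tumour wells and 134 CPM in host wells, a log2 ratio of -1.89. Rfc5 had 9.64 CPM in tumour wells and 41.2 CPM in host wells, a log2 ratio of -1.66. Slbp, at 121 CPM in tumour wells and 77.3 CPM in host wells, had the highest ratio at 0.61.

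Host wells joined many kinds of cell, and the summed level differed widely between them. Host wells were clustered into 15 clusters, of which 8 could be named from marker genes. The members, the other replication genes, the G2 and M phase genes and mitochondrial genes were left out of the clustering. Cell cycle genes outside these lists were not removed. The highest median was 15544 CPM in 16 erythroid-like wells led by Slc4a1, Hbb-bs and Alas2, and another 38 erythroid-like wells led by Car1 had a median of 7308 CPM. B lineage-like wells led by Dntt and Vpreb1 had a median of 6336 CPM (67 wells). Plasmacytoid dendritic-like wells had 3122 CPM (26 wells) and T or NK-like wells had 3034 CPM (22 wells). Monocyte or macrophage-like wells led by C1qa had a median of 626 CPM (87 wells).

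Neutrophil-like wells formed 2 clusters with different levels. In 74 wells led by Fcnb, Cebpe and Camp, genes of granule-forming precursors, the median was 1242 CPM and 54.1% were low. In 98 wells led by Stfa2 and Retnlg, genes of later neutrophils, the median was 195 CPM and 94.9% were low. Clusters without a name ran from a median of 301 CPM in 16 wells led by Mmp12 and Arg1 to 9997 CPM in 47 wells led by Ctsk and Ighv4-2. Rrm2 spanned 14.5 CPM in the Mmp12 cluster to 2152 CPM in the Slc4a1 cluster.

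**Figure D5:**
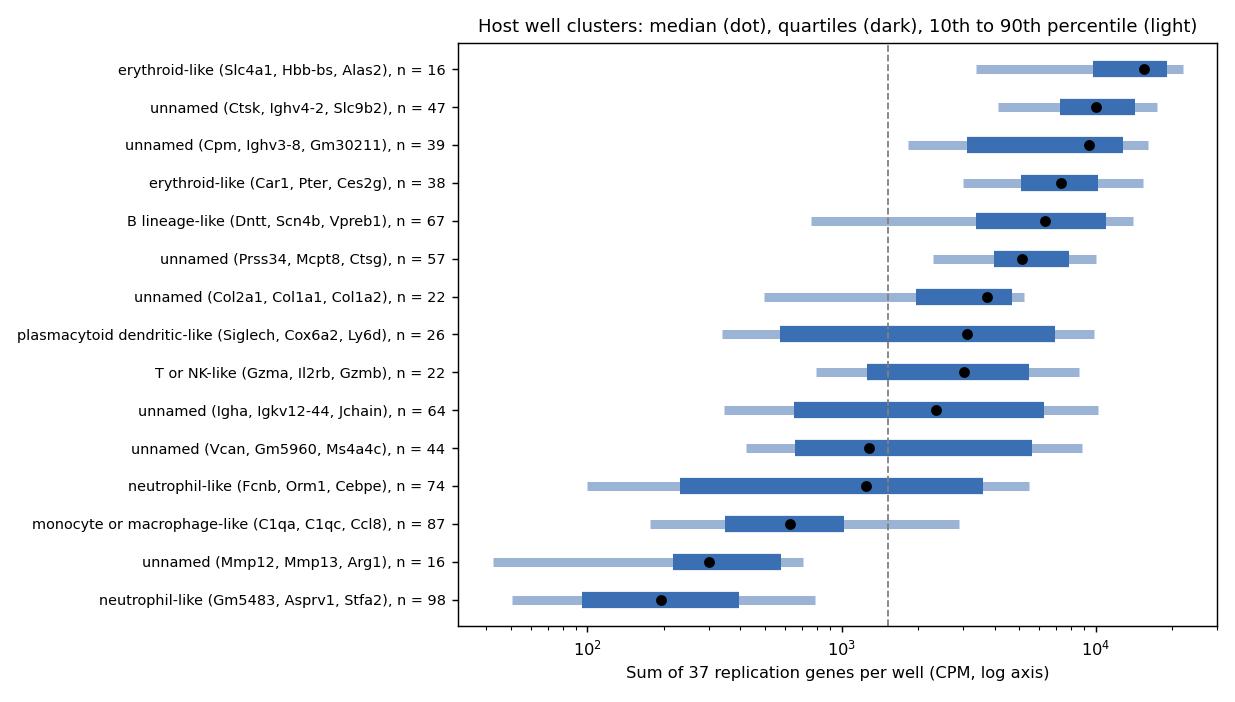
Summed CPM of the 37 replication genes per host well on a log axis, by cluster, as median, quartiles and 10th to 90th percentile, with the 3 leading genes of each cluster and its number of wells. Erythroid-like wells led by Slc4a1 are highest (median 15544 CPM) and the late neutrophil-like wells lowest (median 195 CPM).

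The makeup of host wells moved with the day. Of 119 host wells of day 16, 52 were monocyte or macrophage-like and 24 lay in the later neutrophil-like cluster. The clusters named erythroid-like or B lineage-like held 0 of them. Of 359 host wells of day 4, 54 were B lineage-like, 15 were monocyte or macrophage-like, and 11 and 16 lay in the erythroid-like clusters led by Slc4a1 and by Car1. These counts leave out the unnamed clusters, some of which had immunoglobulin or monocyte genes among their leading genes. The cluster led by Igha held 18 wells of day 4 and 2 of day 16. Those led by Cpm and Ighv3-8, by Ctsk and Ighv4-2, and by Vcan held 27, 33 and 31 wells of day 4. The same 3 clusters held 0, 3 and 3 wells of day 16. Within the monocyte or macrophage-like cluster the median was 874 CPM on day 4 (15 wells), 644 CPM on day 10 (17 wells) and 575 CPM on day 16 (52 wells). Within the later neutrophil-like cluster it was 224 CPM on day 4 (53 wells), 283 CPM on day 10 (10 wells) and 174 CPM on day 16 (24 wells). The part of this makeup in the tumour over host ratios was not tested.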

How the data were processed

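Libraries were of the Smart-seq2 kind, per the labels' protocols. Whole-number read counts per gene for 1248 cells were deposited in a single table. The submitters' processing notes name build mm10, STAR 2.6.0c, Trim Galore 0.6.6, FastQC 0.11.7, Seurat 3.1.2, R 3.6.2, featureCounts 1.6.2 and SAMtools 1.7. The annotation and strand setting are not given in the sources used here. ERCC entries (0.670% of counts), reporters (0.187%) and 4 repeated date-like rows (0.0149%) were left out.

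Cells passed with at least 1000 detected genes, 50000 gene counts and at most 25% mitochondrial counts. The median tumour well of a group held 2981080 to 3346560 counts. Counts were summed per group and kind of well and scaled to CPM. A ratio is log2 of CPM + 5 for genes with 5 CPM in either sum. Levels carry exact Poisson and shares exact binomial 95% intervals. No test across cells was made. No doublet caller was run, and clear wells serve as an alternative for mixed RNA.

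Host wells were clustered with scanpy 1.11.5 and igraph 0.11.9 (2000 variable genes, 20 components, 15 neighbours, resolution 1). Clusters were named from at least 3 markers of a class among their 30 leading genes, where 3 of the class had a median above 0 CPM and no other class had as many among the first 10. Alternatives used edgeR 4.0.16 and DESeq2 1.42.0 in R 4.3.3. Python 3.11.15, numpy 2.4.6, pandas 2.3.3, scipy 1.17.1 and matplotlib 3.10.9 did the rest, and the ratios were tested on simulated data. Positions are from GENCODE M21. Members, roles and gene lists were chosen with earlier results of these data known. All members could be named, and beyond them the genes furthest in a list or closest in likeness.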

Additional observations from a re-analysis of the deposited data

Results flagged for a closer look

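The direction of some members between day 4 bone and culture was opposite in the lines, and this difference was not tested. Gins1 had a log2 ratio of 0.19 in 4T1 and -0.36 in 4T1.2. Gins2, whose values are uncertain through its overlap with Gse1, had 0.54 in 4T1 and -0.10 in 4T1.2. Rrm2 had -0.48 in 4T1 and 0.017 in 4T1.2. Tyms had -0.031 in 4T1 and 0.082 in 4T1.2, and Uhrf1 had -0.11 in 4T1 and 0.038 in 4T1.2. None of these ratios passed 2-fold. With TMM factors the median of all members moved from -0.28 to -0.16 in 4T1 and from -0.29 to -0.39 in 4T1.2. Those moves were larger than the ratios of Tyms and Uhrf1 in either line and of Rrm2 in 4T1.2. The opposite direction of these 3 genes thus depends on the scaling.

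The ratio of the summed members in tumour over host wells also differed in direction between groups, and this was not tested. In 4T1 bone its log2 value was -0.19 on day 4, 1.04 on day 10 and -0.61 on day 16. The value for day 4 bone of 4T1.2 was -0.17. The difference in direction holds for the sums and not for the median well, which was higher in tumour than in host wells in each of these groups. Its medians in 4T1 bone were 4449 CPM in tumour and 3585 CPM in host wells on day 4, 3726 and 772 CPM in tumour and host wells on day 10, and 803 and 545 CPM in tumour and host wells on day 16. In 4T1.2 bone they were 4622 CPM in tumour and 4330 CPM in host wells.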

How the results depend on the processing

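Of 108 recomputed counts of members past 2-fold, higher and lower pooled, 97 stayed within 1.5 times the reported count and 11 did not. Of 108 recomputed medians 18 moved by at least 0.1 on the log2 scale. So did 200 of 556 recomputed ratios of single members past 2-fold, and 0 of those ratios changed sign. Where many members lay past 2-fold, only the furthest were recomputed singly, so members nearer the limit were left out. All 24 recomputed shares of low wells stayed within the interval of the reported share. For tumour over host wells of 4T1 day 10 the count higher, reported as 19, was 12 with TMM factors and 11 with DESeq2 size factors, with 2 lower under either. With a pseudocount of 1 CPM the count was 1 at day 10 over day 4, 6 at day 16 over the fat pad, 2 between 4T1.2 and 4T1 at day 4, and 1 for tumour over host wells of 4T1.2. In clear wells it was 2 for 4T1.2 day 4 over culture, 2 between the lines at day 4 and 3 for tumour over host wells of 4T1.2. TMM factors gave 2 between the lines at day 4. For day 16 over the fat pad the count was 1 with wells weighted equally, 1 without the cell filter and 1 without the deepest day 16 well. Leaving out that well and requiring 6000 detected genes were chosen after seeing the data. The cause of these moves was not tested. Each group was 1 sample, so no replicate could be left out. No paired analysis was possible because cell numbers only name cells and no comparison was tested. Genes near 5 CPM are limited by depth and by the pseudocount.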
